A study of Mus musculus with 2 samples.

Results

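The genes described here encode 10 secreted proteins of the back of the eye, made by the retinal pigment epithelium (RPE) or by cells of the choroid: Ttr, Rbp4, Ptgds, Cst3, Clu, Enpp2, Serpinf1, Pcolce, Timp3 and Efemp1. They were taken by name from the 32285 genes listed in the count tables, and each had 1 row. Their counts were summed over the cells of each marker-defined class in each library, to show which class was the main source of each product. The series title places the study in work on mTORC1, the growth-promoting kinase complex that the product of Tsc1 helps to restrain. The cells came from mouse RPE with choroid, and their RNA was counted cell by cell in droplets, in 2 libraries. All mice were 10 weeks old and carried the floxed Tsc1 allele Tsc1tm1Djk/J. In the group Tsc1 flox this allele stood alone; in Tsc1 RPE KO it was joined by Best-Cre, described in the labels as RPE-specific. For each group, tissue of 1 male and 1 female was pooled into 1 library. The neural retina had been removed, the eye cups were digested with enzymes, and living cells were sorted before capture. There was thus 1 library per genotype, so no difference between genotypes has a replicate check and no test was possible. The intervals given are 95% intervals for counting error, and do not cover differences between cells, mice, pools or preparations.

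The RPE is a pigmented cell layer between the photoreceptors and the choroid, the vascular bed that feeds the outer retina. It releases proteins from both of its faces, toward the photoreceptors and toward Bruch's membrane, the matrix sheet it shares with the choroidal capillaries. Some of these products carry retinoids and other lipids, some restrain proteases, and some build or modify matrix. Several are also made by fibroblasts and endothelial cells of the choroid, so a level measured in whole tissue does not say which cell made the protein's RNA.

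The libraries gave 1526 and 1849 cells, with medians of 4534 and 4614 UMIs (unique molecular identifiers, counted once per captured RNA molecule). Where values come in pairs with no group named, Tsc1 flox is given first and Tsc1 RPE KO second. Clusters were built and named without any of the 10 genes. Of 12 named classes, 10 held at least 10 cells in both libraries and were compared. RPE-like cells, named from Rpe65, Rgr, Rlbp1, Rdh5, Lrat, Rrh, Slc16a8 and Slc6a20a, were 12 and 45. The remaining RPE marker, Best1, whose promoter names the Cre line, had 0 UMIs in RPE-like cells of both libraries. Fibroblast-like cells were 267 and 177, and endothelial-like cells 41 and 48. Only 2 barcodes were called as cells in both libraries. Tsc1 itself could not check the labels, since RPE-like cells held 0 Tsc1 UMIs in both libraries, with upper limits of 115 and 32.0 CPM. CPM is the usual unit of counts scaled to a common total, here the UMIs of a gene over all UMIs of the class, so a share of UMIs mixes the number of cells with the RNA per cell, which cannot be told apart in a total. As these are counts of captured RNA ends that are not scaled by length, levels are compared between classes and libraries for 1 gene at a time. The 182035 barcode sequences that both libraries listed were nearly all below the cell limit.

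Each gene had its highest level in the same class in both libraries, for 10 of 10 genes. Among 10492 genes with at least 100 UMIs, 56.7% did so, and Rbp4, with 57 and 29 UMIs, was below that minimum. The count is of highest values only: Rbp4 in both libraries and Pcolce in Tsc1 RPE KO were not resolved from RPE-like cells. RPE-like cells were highest for Ttr, Ptgds, Cst3, Clu and Enpp2, that is for 5 genes, against 12.2% and 8.94% of all genes. Fibroblast-like cells were highest for Serpinf1, Pcolce, Efemp1 and Rbp4, that is for 4 genes, against 15.5% and 14.6%. Endothelial-like cells were highest for Timp3, 1 gene, against 15.2% and 15.8%. A high level per UMI is not the same as most of the RNA: classes with many cells can hold more of a gene in total, and for Cst3 and Timp3 the class of the highest level held only part of the gene's UMIs in called cells.

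**Figure D1:**
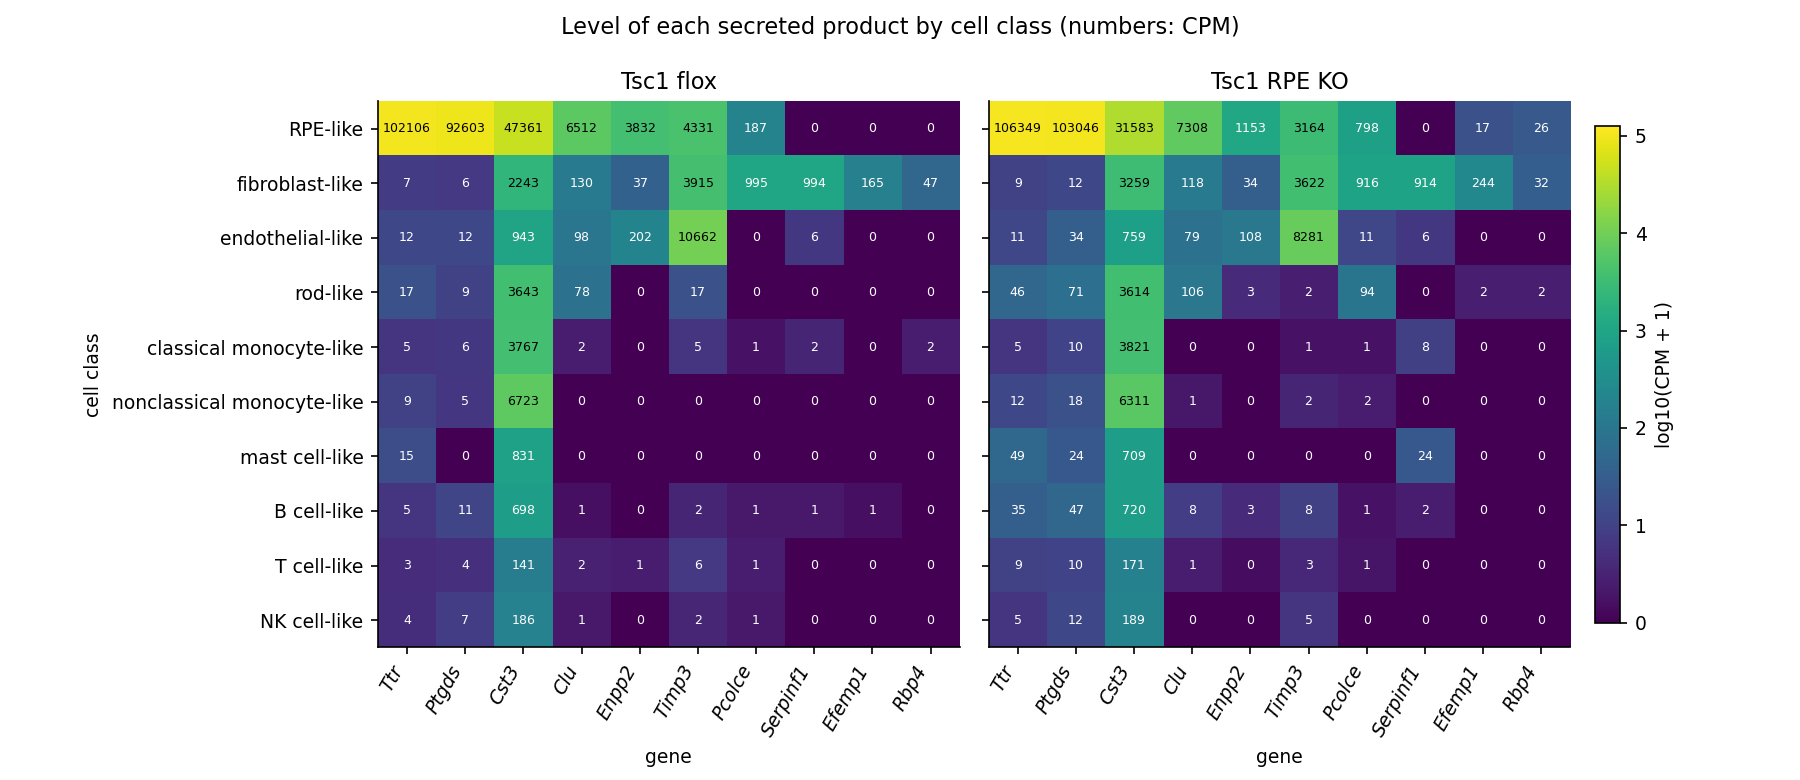
Level of the 10 genes in 10 cell classes, 1 panel per library. Rows are classes, columns are genes, the printed numbers are CPM and the colour is log10(CPM + 1). The left 6 genes are high in the RPE-like row, Timp3 is higher still in the endothelial-like row, and the right 4 peak in the fibroblast-like row.

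Upstream sequence from RefSeq (build GRCm38.p6) was read for 7 of the 10 genes, that is without Ttr, Clu and Enpp2. So that start regions can be set side by side, 1 window is shown for a gene highest in RPE-like, endothelial-like and fibroblast-like cells each. For Rbp4, the gene shown for fibroblast-like cells, the highest level was not resolved from that of the RPE. The stretch printed is the part of the 250 bases before a RefSeq start that lies outside every exon of the GENCODE M21 annotation. Capitals mark TAATTA, a core bound by many homeodomain proteins, and TATAAA, the TATA box. In the mm10 annotation, Ptgds is at chr2:25466709-25470046, Cst3 at chr2:148871722-148875692, Enpp2 at chr15:54838901-54952892, Serpinf1 at chr11:75409769-75422701, Pcolce at chr5:137605103-137613784 and Rbp4 at chr19:38116629-38125281, all on the minus strand. Clu is at chr14:65968483-65981547, Timp3 at chr10:86300372-86349506 and Efemp1 at chr11:28853204-28926743, on the plus strand. The Ptgds stretch is chr2:25469843-25469999 on the minus strand, the Timp3 stretch chr10:86300162-86300371 on the plus strand, and the Rbp4 stretch chr19:38124829-38124954 on the minus strand.
Ptgds: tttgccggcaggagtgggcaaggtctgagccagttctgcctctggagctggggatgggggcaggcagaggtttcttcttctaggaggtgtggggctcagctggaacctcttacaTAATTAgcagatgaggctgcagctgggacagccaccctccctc
Timp3: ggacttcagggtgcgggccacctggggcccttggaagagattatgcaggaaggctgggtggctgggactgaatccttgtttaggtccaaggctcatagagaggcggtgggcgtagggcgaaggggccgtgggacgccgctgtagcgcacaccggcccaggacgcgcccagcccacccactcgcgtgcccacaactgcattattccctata
Rbp4: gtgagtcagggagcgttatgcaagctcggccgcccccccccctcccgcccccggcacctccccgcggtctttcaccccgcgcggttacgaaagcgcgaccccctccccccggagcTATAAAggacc
Searched on both strands, TAATTA stood in the Ptgds window, 136 bases before its start, and in 4.84% of 32851 windows of all genes. TATAAA stood in 1 of the 2 Rbp4 windows, the one shown, 28 bases before that start, and in 12.4% of all windows. The E-box CATGTG stood in 1 of the 8 windows of these genes, that of Serpinf1, and in 12.3% of all. TAATCC, the letters bound by the RPE and photoreceptor factors OTX2 and CRX, was in 0 of the 8 windows and in 6.25% of all, and the E-box CACGTG was in 0 of the 8 and in 6.02% of all. TAATTA and TATAAA were added after the windows had been seen. A match is a description of letters, not a bound site.

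Ttr and Ptgds were the clearest RPE products. Ttr encodes transthyretin, which carries thyroxine and the complex of retinol with its binding protein, and its gene lies on chromosome 18. In RPE-like cells it reached 102106 CPM (98640 to 105663) and 106349 CPM (104475 to 108248). These cells held 98.7% and 98.0% of all Ttr UMIs in called cells, although they were 0.786% and 2.43% of the cells. The next class was rod-like at 17.3 CPM in Tsc1 flox and mast cell-like at 48.9 CPM, from 2 UMIs, in Tsc1 RPE KO.

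Ptgds encodes the lipocalin-type prostaglandin D2 synthase, which also binds retinoids. Its level in RPE-like cells was 92603 CPM (89303 to 95993) and 103046 CPM (101201 to 104915), with 98.3% and 97.3% of its UMIs. The pair made up 19.5% and 20.9% of all UMIs of RPE-like cells. Every RPE-like cell held both RNAs. Cells of a class are not replicates of a genotype. Single cells of Tsc1 flox ranged from 33281 to 124619 CPM for Ttr and from 40720 to 125325 CPM for Ptgds. Cells of Tsc1 RPE KO spread more widely, from 12966 to 177470 CPM for Ttr and from 24135 to 193381 CPM for Ptgds, and overlapped the whole flox range.

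Outside the RPE, Ttr and Ptgds were low in each compared class. Free RNA, read from barcodes with 10 to 100 UMIs, held 998 and 2020 CPM of Ttr, and 1084 and 2258 CPM of Ptgds. Ptgds made up 52.1% and 52.8% of the UMIs of the pair there, and 47.6% and 49.2% in RPE-like cells. In T cell-like cells it was 53.3% (26.6 to 78.7) and 51.3% (34.8 to 67.6), an interval that holds both. In B cell-like cells of Tsc1 flox it was 69.2% (48.2 to 85.7), and in rod-like cells of Tsc1 RPE KO 60.6% (48.3 to 72.0). In classical monocyte-like cells Ttr was 1.02-fold (0.273 to 3.82) of the flox level. That interval, from 6 UMIs in each library, was too wide to compare with the change in free RNA. Ptgds reached 71.2 CPM in rod-like cells of Tsc1 RPE KO, where the estimated share of free RNA was 0%. The 34.8 CPM of Ttr in B cell-like cells of Tsc1 RPE KO came from 46 UMIs, of which 15 were in 1 cell. The part of free RNA in these values was not tested.

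Clu, which encodes clusterin, a chaperone of the extracellular space, was the third gene with most of its RNA in the RPE. RPE-like cells had 6512 CPM (5659 to 7457) and 7308 CPM (6823 to 7819), 50.2-fold (40.5 to 62.3) and 62.0-fold (49.9 to 77.8) above fibroblast-like cells. Clu was seen in 12 of 12 and 44 of 45 RPE-like cells, against 0.882% and 0.802% of T cell-like cells. The share of its UMIs held by RPE-like cells was 53.0% and 81.7%, and fibroblast-like cells held 38.3% and 8.82%. The level in each class moved little between the libraries, while RPE-like cells were 12 and 45 and fibroblast-like cells 267 and 177. Below the RPE, the intervals of fibroblast-like, endothelial-like and rod-like cells overlapped in both libraries.

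Enpp2 encodes autotaxin, the secreted enzyme that makes lysophosphatidic acid. Its level in RPE-like cells was 3832 CPM (3185 to 4573; 123 UMIs) and 1153 CPM (965 to 1366; 133 UMIs). Endothelial-like cells followed with 202 CPM (141 to 282) and 108 CPM (64.8 to 168), and fibroblast-like cells with 36.9 CPM (26.7 to 49.8) and 33.7 CPM (22.0 to 49.4). The order RPE, endothelium, fibroblast was the same in both libraries, and the 3 counting intervals did not overlap in either. RPE-like cells held 60.3% and 71.9% of its UMIs.

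Cst3, which encodes cystatin C, an inhibitor of lysosomal cysteine proteases, was found in each of the 10 compared classes. RPE-like cells were again highest, with 47361 CPM (45010 to 49803) and 31583 CPM (30566 to 32626). That was 7.04-fold (6.63 to 7.48) and 5.00-fold (4.83 to 5.19) above nonclassical monocyte-like cells, which had 6723 and 6311 CPM. Classical monocyte-like cells at 3767 and 3821 CPM and rod-like cells at 3643 and 3614 CPM came next, and their intervals overlapped. T cell-like cells had the lowest levels, 141 and 171 CPM. RPE-like cells nevertheless held only 10.2% and 11.7% of Cst3 UMIs. Classical monocyte-like cells held most in Tsc1 flox (31.7%), and nonclassical monocyte-like cells most in Tsc1 RPE KO (52.8%). Nonclassical monocyte-like cells were 89 and 442, and cluster 6 held most of them in Tsc1 flox (57 cells) and cluster 2 most in Tsc1 RPE KO (290 cells).

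**Figure D2:**
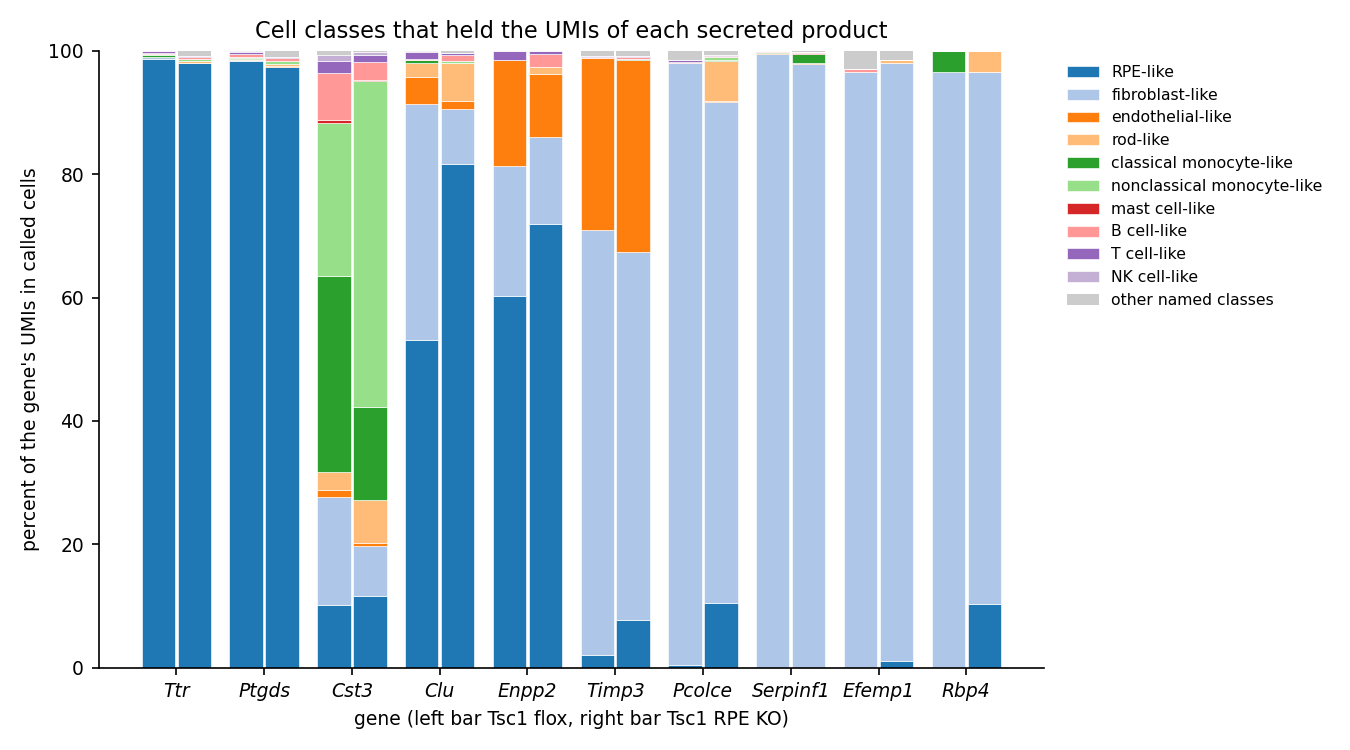
Share of each gene's UMIs in called cells held by each class, in percent, with the left bar of a pair for Tsc1 flox and the right bar for Tsc1 RPE KO. Ttr and Ptgds are almost wholly RPE-like, Serpinf1, Efemp1 and Rbp4 almost wholly fibroblast-like, and Cst3 is split among monocytes, fibroblasts and the RPE.

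Timp3 encodes a metalloproteinase inhibitor that binds to matrix and is a component of Bruch's membrane. Endothelial-like cells had 10662 CPM (10181 to 11160) and 8281 CPM (7862 to 8717). RPE-like cells had 4331 CPM (3641 to 5114) and 3164 CPM (2848 to 3506), and fibroblast-like cells 3915 CPM (3802 to 4030) and 3622 CPM (3489 to 3759). The order of the last pair turned between the libraries and their intervals overlapped in each. Endothelial-like cells were 2.46-fold (2.07 to 2.95) and 2.29-fold (2.14 to 2.44) above the next class. By number of UMIs the main holder was the fibroblast-like class, with 68.8% and 59.6%, from 267 and 177 cells against 41 and 48 of the endothelium. Timp3 lies inside Syn3, a gene of the opposite strand that had the most similar profile over classes (Pearson's r = 0.99, 556 UMIs against 11311 of Timp3), and how the counting treated strand is not given in the sources used here.

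Serpinf1 encodes pigment epithelium-derived factor (PEDF), a serpin without protease-inhibiting activity that restrains vessel growth and was named for its isolation from RPE cultures. Here its RNA lay almost wholly in fibroblasts. Fibroblast-like cells had 994 CPM (937 to 1053; 1157 UMIs) and 914 CPM (847 to 984; 705 UMIs), and held 99.5% and 97.9% of its UMIs. RPE-like cells held 0 Serpinf1 UMIs in both libraries, which allows up to 115 CPM and 32.0 CPM. With the limit for a cell lowered to 500 UMIs the RPE-like class still held 0, and the upper limits fell to 61.3 and 23.1 CPM. A level like that of the fibroblasts lies outside these limits.

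Efemp1 encodes fibulin-3, a glycoprotein of elastic fibres and basement membranes. Fibroblast-like cells had 165 CPM (142 to 190) and 244 CPM (210 to 281), with 96.5% and 96.9% of its UMIs. RPE-like cells held 0 UMIs of 32094 and 2 UMIs of 115347. Mural-like cells, left out of the comparison because they were 9 and 5, had 6 and 3 Efemp1 UMIs, or 164 CPM (60.2 to 357) and 145 CPM (29.9 to 423), which overlapped the fibroblast-like intervals.

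Rbp4 encodes the plasma retinol-binding protein, the partner of transthyretin, and was sparse in these libraries. Fibroblast-like cells had 47.2 CPM (35.6 to 61.5; 55 UMIs) and 32.4 CPM (21 to 47.8; 25 UMIs). RPE-like cells had 0 UMIs in Tsc1 flox and 3 UMIs in Tsc1 RPE KO, or 26.0 CPM (5.36 to 76.0). The fibroblast-like level was 1.25-fold (0.380 to 6.45) of the RPE-like level in Tsc1 RPE KO, and the 0 UMIs of Tsc1 flox allow up to 115 CPM. The highest level of Rbp4 was thus not resolved from that of the RPE in either library, although fibroblast-like cells held 96.5% and 86.2% of its UMIs. Its partner Ttr, and Stra6, the cell-surface receptor of RBP4, were RPE genes here: Stra6 had 997 and 772 CPM in RPE-like cells, against 0.859 and 0 CPM in fibroblast-like cells. Stra6 was named after its values had been seen.

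Pcolce encodes the enhancer of procollagen C-proteinase, which speeds the maturation of fibrillar collagens. Fibroblast-like cells had 995 CPM (938 to 1054) and 916 CPM (850 to 986). RPE-like cells had 187 CPM (68.6 to 407; 6 UMIs) and 798 CPM (643 to 978; 92 UMIs). Fibroblast-like cells therefore stood 5.32-fold (2.44 to 14.5) above the RPE in Tsc1 flox, and 1.15-fold (0.923 to 1.44) in Tsc1 RPE KO, where the intervals overlapped. Of the 10 fibroblast markers, 10 were at 0 in RPE-like cells of Tsc1 flox; in Tsc1 RPE KO 8 were, and the others summed to 2 UMIs.

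The fibroblast-like class joined 2 clusters that the secreted products told apart. Cluster 1, with Edn3 and Pgf among its leading genes, had 237 and 153 cells. Cluster 13, high in Sfrp2 and Fmod, had 30 and 24. The clusters were built from the genes of the same cells but without these 10, and the values are given as a description. Serpinf1 was 7.30-fold (6.49 to 8.22) higher in cluster 13 in Tsc1 flox (3705 against 508 CPM) and 3.56-fold (3.06 to 4.14) in Tsc1 RPE KO (2174 against 611 CPM). Pcolce was 2.55-fold and 2.84-fold higher there, Cst3 2.40-fold and 2.48-fold, and Clu 5.36-fold and 2.37-fold. In Tsc1 RPE KO, 1 cell held 35.5% of the Cst3 UMIs of cluster 13. For Clu, 1 cell held 27.0% of the 74 UMIs of that cluster in Tsc1 flox and 39.4% of the 33 UMIs in Tsc1 RPE KO. Rbp4 went the other way, with 55 and 25 UMIs in cluster 1 and 0 in cluster 13 of both libraries, which allows up to 20.8 and 24.7 CPM against 55.7 and 40.2 CPM. Timp3 had no common direction: it was 1.21-fold (1.12 to 1.31) higher in cluster 13 in Tsc1 flox, where 1 cell held 27.9% of the UMIs, and 0.414-fold (0.363 to 0.472) of cluster 1 in Tsc1 RPE KO.

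**Figure D3:**
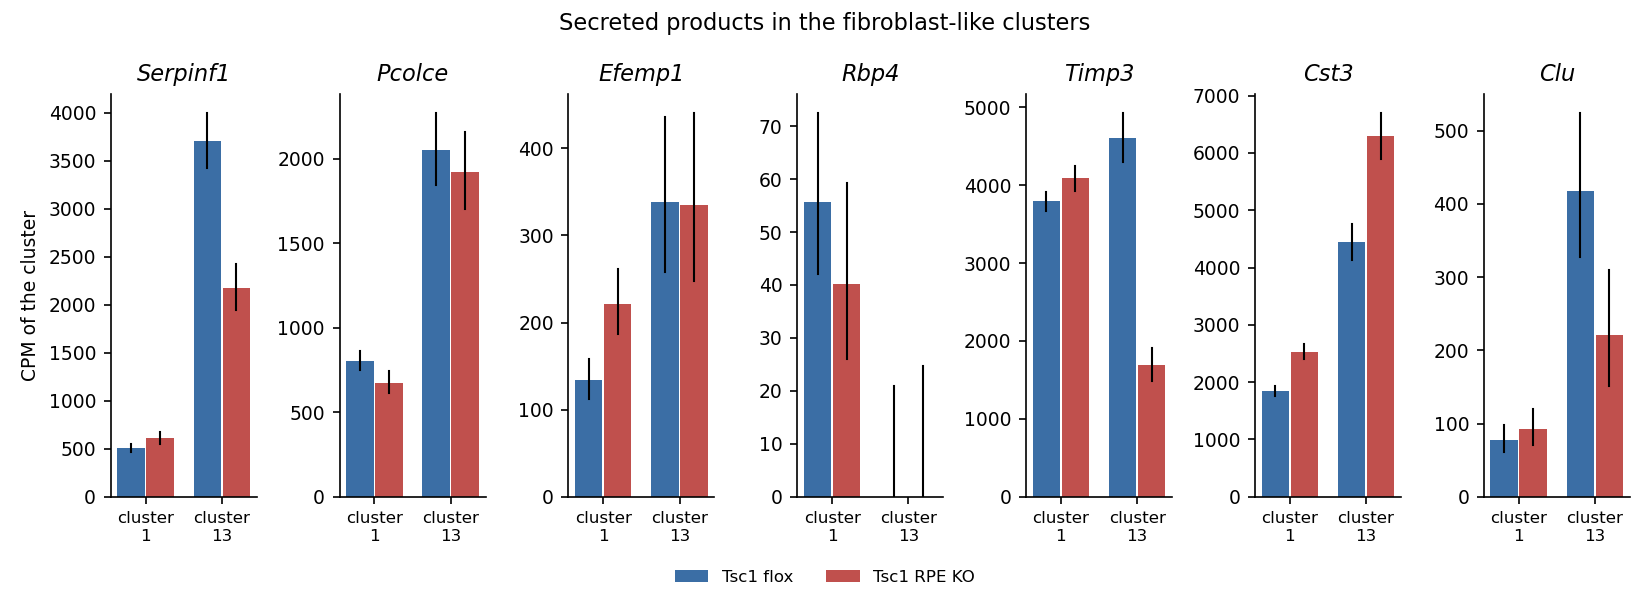
Levels of 7 secreted products in the fibroblast-like clusters, in CPM of the cluster, for Tsc1 flox (blue) and Tsc1 RPE KO (red); lines are 95% counting intervals. Serpinf1, Pcolce, Efemp1, Cst3 and Clu are higher in cluster 13 in both libraries, and Rbp4 is at 0 there.

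Between the libraries, 7 of the 10 genes could be compared in RPE-like cells, with at least 50 UMIs over both. The median log2 ratio of Tsc1 RPE KO to Tsc1 flox was 0.06 over these 7 and 0.02 over the 373 genes measured in the class. Past a 2-fold difference, 1 of the 7 was higher in Tsc1 RPE KO, against 7.24% of all, and 1 was lower, against 2.95%. These were Pcolce and Enpp2. RPE markers summed to 40350 and 24639 CPM over 9 markers, of which Best1 was at 0, but did not move as a group. Rpe65 stood at 6201 and 1673 CPM and Lrat at 748 and 1639 CPM. Rgr was lower as a share of UMIs, with 619 UMIs of 32094 and 985 of 115347. Melanocyte markers summed to 1620 and 2610 CPM, rod markers to 312 and 459 CPM, and B cell markers to 0 and 234 CPM. The part of these shifts in the differences was not tested.

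Enpp2 was 3.32-fold lower (2.58 to 4.28) in RPE-like cells of Tsc1 RPE KO, where 11 of 373 genes were lower by 2-fold or more. The 9 markers of the class summed to 40350 and 24639 CPM. Rpe65 was lower, at 6201 and 1673 CPM, and Rgr was lower as a share of UMIs. Lrat was higher, at 748 and 1639 CPM. Whether the Enpp2 difference went with that of the markers was not tested. For Enpp2, the 12 cells of Tsc1 flox ran from 0 in 3 cells, through a median of 2046 CPM, to 15662 CPM. The top cell held 32.5% of the UMIs. In Tsc1 RPE KO the 45 cells ran from 0 in 11 cells, through a median of 644 CPM, to 5159 CPM. The ranges overlapped, and 4 flox cells lay above every cell of Tsc1 RPE KO. Without the top cell of each library the difference was 2.75-fold. After each cell was thinned to 1000 UMIs, 9 of 12 and 53.3% of RPE-like cells held an Enpp2 UMI, against 9 of 12 and 75.6% unthinned and 0.882% and 0.267% of T cell-like cells unthinned. Enpp2 was also lower in endothelial-like cells, by 1.88-fold (1.05 to 3.48; 35 and 19 UMIs), an interval that included no difference with a minimum of 1000 UMIs (0.976 to 3.18), with 500 UMIs (0.954 to 3.11) and without the top cells (0.945 to 3.61). In fibroblast-like cells it was 1.10-fold lower (0.659 to 1.86).

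Pcolce was 4.27-fold higher (1.89 to 11.9) in RPE-like cells of Tsc1 RPE KO, from 6 and 92 UMIs. It was at 0 in 7 of 12 and in 15 of 45 cells, with highest values of 783 and 3005 CPM. Unthinned, 41.7% and 66.7% of cells held a UMI, and 33.3% and 48.9% did after thinning, against 0.882% and 0.535% of T cell-like cells unthinned. With the limit for a cell at 500 UMIs the difference was 2.48-fold, from 19 and 125 UMIs.

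Pcolce was also counted in rod-like cells of 1 library. They held 0 UMIs in 42 cells of Tsc1 flox and 57 UMIs, in 34 of 176 cells, in Tsc1 RPE KO, where the level was 94.4 CPM (71.5 to 122). The 95% interval of the ratio began at 2.87-fold, and 6.53% of genes measured in rods were 2-fold or more higher. Unthinned, 19.3% (13.8 to 25.9) of rod-like cells of Tsc1 RPE KO held a UMI. After thinning to 1000 UMIs the share was 7.95%, which lies within the exact limit of 8.41% for 0 of 42 cells, so a difference in the share of cells was not detectable at matched depth. Median depths were 2074.5 and 2798 UMIs. Free RNA held 141 and 124 CPM of Pcolce, and Serpinf1, at 125 and 85.3 CPM in free RNA, was at 0 in rods of both libraries; the part of free RNA in the rod value was not tested. Cluster 8 held 32 of the 34 cells. Fbxo24, which overlaps Pcolce on the same strand, had 1 UMI of 115824 and 15 UMIs of 603722 in rods, so reads of these genes may not be separable.

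The other RPE products moved by less than 2-fold. Cst3 was 1.5-fold lower (1.41 to 1.59) in RPE-like cells of Tsc1 RPE KO, with cell medians of 45482 and 32526 CPM, and Timp3 was 1.37-fold lower (1.12 to 1.67), with medians of 3929 and 2630 CPM. Ttr was 1.04-fold (1.0 to 1.08), Ptgds 1.11-fold (1.07 to 1.16) and Clu 1.12-fold (0.963 to 1.31) of the flox level. As Ttr and Ptgds take up about the same share of RPE UMIs in both libraries, leaving them out of the total hardly moved the rest, with Cst3 1.47-fold, Timp3 1.34-fold and Enpp2 3.26-fold lower and Pcolce 4.35-fold higher. Of the 45 RPE-like barcodes of Tsc1 RPE KO, 1 held 27 UMIs of leukocyte markers. Without such barcodes Enpp2 was 3.08-fold lower and Pcolce 4.42-fold higher.

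**Figure D4:**
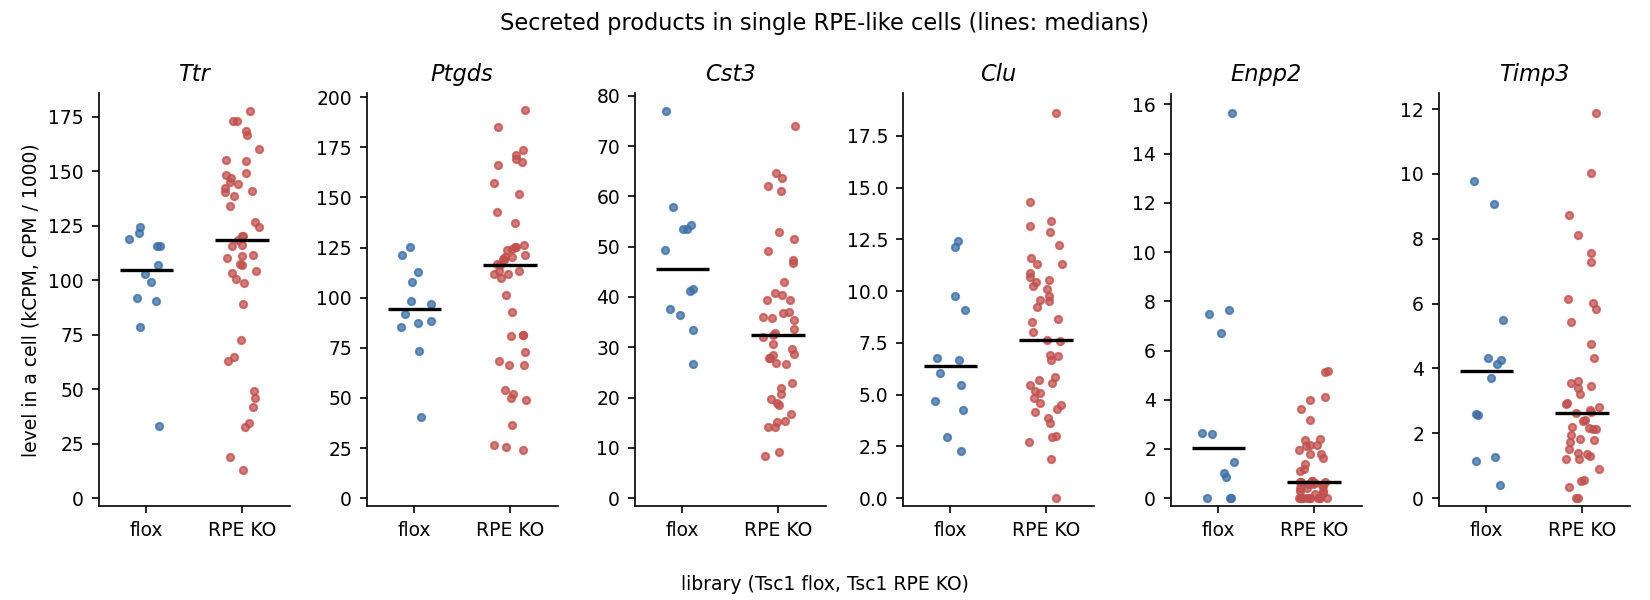
Level of 6 secreted products in each RPE-like cell, in kCPM (CPM divided by 1000), for 12 cells of Tsc1 flox and 45 of Tsc1 RPE KO; points are cells and lines are medians. The ranges of the libraries overlap for every gene, and the medians of Cst3, Enpp2 and Timp3 are lower in Tsc1 RPE KO.

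In fibroblast-like cells 8 of the 10 genes could be compared and 0 passed 2-fold, against 1.76% of 6463 genes. Cst3 was 1.45-fold higher (1.38 to 1.54) and Efemp1 1.48-fold higher (1.2 to 1.82) in Tsc1 RPE KO. Timp3 was 1.08-fold lower (1.03 to 1.13), and the intervals of Serpinf1, Pcolce, Clu, Enpp2 and Rbp4 included no difference. Cst3 thus stood lower in RPE-like cells and higher in fibroblast-like cells of the same library, a contrast for which no test was possible. In that library 1 cell held 35.5% of the 940 Cst3 UMIs of cluster 13. Under alternative processing the fibroblast-like difference was 1.33 to 1.45-fold. In endothelial-like cells Timp3 was 1.29-fold lower (1.2 to 1.38) in Tsc1 RPE KO, and 0 of the 3 genes measured passed 2-fold, against 2.94%. In B cell-like cells 2 of 3 did, Ttr and Ptgds, against 0.226% of genes higher. They stood at 34.8 and 46.9 CPM in Tsc1 RPE KO, where the estimated share of free RNA in B cell-like cells was 0.342%. The part of free RNA in these 2 values was not tested.

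**Figure D5:**
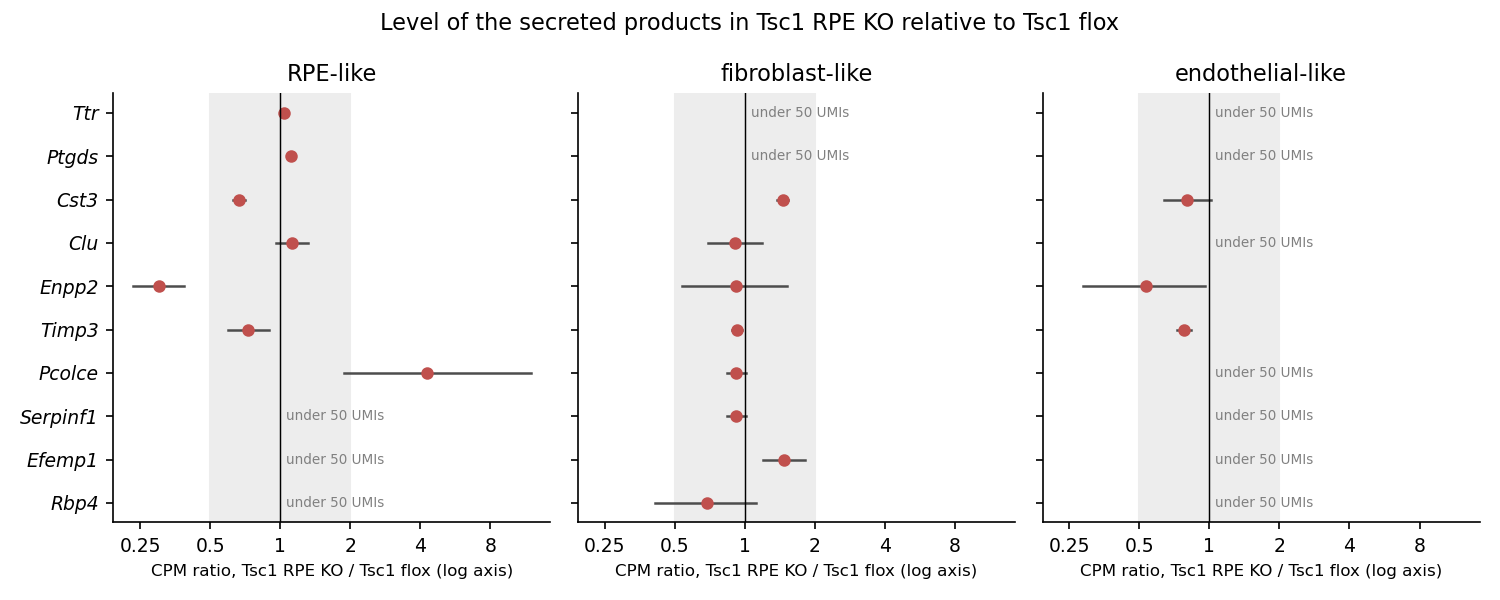
Ratio of CPM in Tsc1 RPE KO to Tsc1 flox, on a log axis, in RPE-like, fibroblast-like and endothelial-like cells; points are ratios, lines are 95% counting intervals and the grey band is within 2-fold. Enpp2 lies left of the band and Pcolce right of it in RPE-like cells, and no gene leaves it in fibroblast-like cells.

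Among the 57 RPE-like cells the products did not rise and fall as a block. Spearman's correlation of CPM per cell was 0.72 for Ttr with Ptgds and 0.53 for Ttr with Cst3, 0.57 for Timp3 with Enpp2, and -0.23 for Ttr with Timp3. Within Tsc1 flox the 12 cells gave 0.22 for Ttr with Ptgds and 0.75 for Timp3 with Enpp2, and within Tsc1 RPE KO the 45 cells gave 0.70 and 0.49. The cells of a library share its depth and preparation, and genes that take up much of a cell's UMIs lower the CPM of others, so these values are descriptions.

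The profile of each gene over 10 classes in both libraries, 20 points of log2(CPM + 10), was set beside those of 10492 genes. Points share a library's cells and depth, so Pearson's r is given as a description. Ttr was most like Ptgds (0.99), Rlbp1 and Slc16a8, the latter pair being markers used to name the RPE. Clu was most like Slc22a17, Gnao1 and Bsg, and Enpp2 most like Tlr3, Fez2 and Slc1a1. Serpinf1 was most like Lum (0.99), Serping1 and Lsamp, Efemp1 most like Abca8a, Aspn and Tmprss2, and Rbp4 most like Sod3, C2 and Tpm2. Pcolce was most like Shisa2, Gm49708 and Ptges, and Timp3, after Syn3, most like Osmr and S100a16. Cst3 had no close match, with Atp6ap1, a subunit of the vacuolar proton pump, first at 0.88, then Atp6v0c and Bri3. Within the set, Serpinf1 and Efemp1 gave 0.94, Rbp4 and Efemp1 0.94, and Serpinf1 and Ttr -0.16.

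Genes that act with these products were read from 9 lists of 62 genes. Of 48 with at least 100 UMIs, 46 had the same highest class in both libraries, namely 23 in fibroblast-like, 6 in endothelial-like, 5 in RPE-like, 4 in classical monocyte-like, 3 in rod-like, 2 each in nonclassical monocyte-like and mast cell-like, and 1 in T cell-like cells. Over all genes 56.7% had the same highest class, and in Tsc1 flox 15.5% peaked in fibroblast-like, 15.2% in endothelial-like and 12.2% in RPE-like cells. Several of the listed genes are markers that named those classes. On the retinoid list, 4 of 5 genes peaked in the RPE, among them Rpe65 and Lrat, both of them markers that named the class. Rbp3, the interphotoreceptor retinoid carrier, peaked in rods at 1684 and 1121 CPM. Prostaglandin genes stood apart from Ptgds. Ptgs2 peaked in mast cell-like cells, only 13 and 11 cells, at 401 and 220 CPM, against 159 and 167 CPM in fibroblast-like cells. The haematopoietic synthase Hpgds also peaked in mast cell-like cells, though from only 3 UMIs in each library. Ptgs1 peaked in endothelial-like cells at 162 and 215 CPM.

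Of the enzymes and receptors downstream of autotaxin, none with at least 100 UMIs peaked in RPE-like cells. Of 6 genes of lysophosphatidic acid with at least 100 UMIs, 3 peaked in the endothelium. They were the lipid phosphatases Plpp3, at 2366 and 1807 CPM, and Plpp1, at 2071 and 1461 CPM, and the receptor Lpar6, at 92.6 and 119 CPM. RPE-like cells held 0 UMIs of each, which allows up to 115 and 32.0 CPM. The peak of Lpar6 was thus not resolved from the RPE in Tsc1 flox. The cathepsins that cystatin C inhibits peaked in leukocytes or fibroblasts. Ctsb peaked in nonclassical monocyte-like cells (1398 and 1472 CPM) and Ctsh in classical monocyte-like cells (553 and 553 CPM). Ctss did so in nonclassical cells of Tsc1 flox and classical cells of Tsc1 RPE KO. RPE-like cells also held Ctsb, at 499 and 1023 CPM, but had 0 CPM of Ctsh in both libraries and 0 and 60.7 CPM of Ctss. Apoe, a lipid carrier named here beside clusterin, peaked in the RPE at 10719 and 9363 CPM, Trem2 in classical monocyte-like cells and Vldlr in rods.

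On the lists of Serpinf1, Pcolce, Efemp1 and Timp3, the last with its own highest level in the endothelium, fibroblast-like cells were the most frequent peak. The share over all genes was 15.5% and 14.6%, and the lists hold the fibroblast markers Col1a1, Col1a2, Col3a1 and Mmp2. All 5 procollagen genes with at least 100 UMIs peaked in fibroblast-like cells, led by Col1a2 at 3080 CPM and 2211 CPM, Col1a1 at 2922 and 1808 CPM and Col3a1 at 1318 and 1566 CPM. RPE-like cells, which held Pcolce, had 0 UMIs of each of these 3 collagens. Of 7 fibulin and elastic fibre genes, 6 peaked in fibroblast-like cells, among them Fbln1 (541 and 518 CPM), Fbn1 (256 and 275 CPM) and Fbln2 (134 and 211 CPM). Of the PEDF list 5 of 7 did, with Serpine2, another serpin, at 1930 and 2199 CPM and the receptor Lrp6 at 303 and 268 CPM, while Rpsa, a ribosomal protein and laminin receptor, peaked in T cell-like cells. Of the metalloproteinase list 4 of 6 did, with Timp2 at 725 and 829 CPM, while Kdr, the VEGF receptor that TIMP3 can block, is a marker that named the endothelial-like class and had 2569 and 1841 CPM there, and Adam17 peaked in nonclassical monocyte-like cells.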

How the data were processed

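Single cells of mouse RPE and choroid were captured in 1 library per genotype (2 libraries), and the deposited values are raw UMI counts per gene and barcode, empty droplets included. Cell Ranger 2.1.1 and the build mm10 stand in the submitters' processing notes, but Cell Ranger 4 in the matrix headers, so the version is uncertain. The authors' tables held 10771118 and 12574364 counts on 661479 and 728310 barcodes.

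A barcode counted as a cell above 10% of the 99th percentile of UMIs among the top 3000 (1487.4 in Tsc1 flox, 1373.6 in Tsc1 RPE KO), with 200 genes and at most 20% mitochondrial UMIs. This left out 55 and 68 barcodes with few genes and 0 for mitochondrial UMIs. Scrublet in scanpy 1.11.5 removed 6 and 23 doublets. The 2000 most variable genes, without the 10 members, gave 30 components, 20 neighbours and 18 Leiden clusters (leidenalg 0.10.2, resolution 1). A cluster took a class name from at least 3 markers seen in 10% of its cells and 2-fold above the other cells, unless its top 10 genes held more markers of a different class. Every "-like" name is a class rebuilt here. Sums per class were given as CPM, with exact Poisson intervals, exact conditional binomial intervals for ratios and exact Clopper-Pearson intervals for shares (scipy 1.17.1). Counting intervals at 1 library per genotype allow no test. Genes counted as measured from 50 UMIs, as called from 2-fold. Scripts were tested on simulated data.

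The members, marker lists and partner lists were chosen with earlier results of these data known. All members are named, with the 3 genes most like each and the 3 partner genes with most UMIs per list, of which 1 is not reported here. Alternatives changed the UMI minimum, the clustering resolution, the genes clustered, the scaling, free RNA and the removal of mixed barcodes or top cells.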

Additional observations from a re-analysis of the deposited data

Results flagged for a closer look

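Some RNA of the secreted products lay in barcodes that no comparison used. In Tsc1 RPE KO, 2 erythroid-like cells held 105 Ttr UMIs, 118 Ptgds UMIs, 23 Cst3 UMIs and 4 Clu UMIs. All of the Ttr and Ptgds UMIs were in 1 of the 2 cells, and the 10 erythroid-like cells of Tsc1 flox held 0 of both genes. Ptgds made up 52.9% (46.1 to 59.6) of the pair, against 49.2% in RPE-like cells and 52.8% in free RNA. Of the 68 barcodes of Tsc1 RPE KO that were left out for few genes, 5 Cst3 UMIs were counted. With no control samples, these were set against the limit of 3 counts that a count of 0 allows.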

How the results depend on the processing

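No paired analysis was possible because each genotype had 1 library, and leaving out a library would have left no comparison. Under 10 alternatives the number of genes highest in RPE-like and in fibroblast-like cells, the number with the same highest class and the number past 2-fold gave 70 values, of which 70 stayed within 1.5 times the main count and 0 moved further. The highest class of each gene did not change under any of the 10. Of the ratios of the highest to the next class, 177 stayed within the interval of the main value and 17 moved. Of the ratios between libraries of the 7 genes measured in RPE-like and the 8 in fibroblast-like cells, 138 stayed, 11 moved and 1 reversed. Clustering with the 10 genes kept, or at resolution 0.5 or 2, gave these 2 classes the same UMIs as the main run. The ratios under those alternatives therefore could not move, and they are counted among the 138. The one that reversed was Ttr in RPE-like cells, whose log2 ratio of Tsc1 RPE KO to Tsc1 flox was 0.06 as CPM and -0.0026 as mean UMIs per cell, which leaves out the scaling to the class total. Over the alternatives Enpp2 in RPE-like cells was 2.75 to 3.47-fold lower, Pcolce 2.48 to 5.54-fold higher, Cst3 1.38 to 1.56-fold lower and Timp3 1.21 to 1.43-fold lower in Tsc1 RPE KO. Among the 10 compared classes, the summed UMIs of Tsc1 flox were fewest in the RPE: 12 cells held 32094 UMIs, so a gene with 0 UMIs could reach 115 CPM.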
